A study of Danio rerio with 8 samples.

Results

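The subject is the 7 genes of the fasting response that runs through the forkhead factor Foxo3 and the insulin receptor substrate Irs2, measured in zebrafish larvae that lack a working pex2 gene. They are foxo3a, foxo3b, irs2a, ppargc1a, trim63a, trim63b and fbxo32, found through the RefSeq accession that each probe of the array carries. They had 8 of the 39749 probes, with 2 for irs2a and 1 for each of the others. All 8 probes were well above background on all 8 arrays, and all 7 genes were among the 17260 named genes tested. Pex2 sits in the peroxisomal membrane and is needed to import enzymes into peroxisomes, which break down very long fatty acids and take part in ether lipid synthesis. The study made this fish as a model of Zellweger syndrome, a disorder of peroxisome assembly.

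The arrays held 4 pools of homozygous pex2 mutants (pex2-/-, the allele named typeC) and 4 pools of their wild-type siblings (pex2+/+). All fish were 5 weeks old and raised in the ordinary way. Each pool was an equal mixture of whole-body RNA from 3 larvae, so a value is an average over fish and over tissues. Feeding state, body size and sex of the larvae are not given in the sources used here. Nor is it given whether the pools came from separate clutches, so they may not be independent. The p-values set a genotype difference against the spread between these pools only.

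When food is scarce, insulin signalling weakens, the kinase AKT no longer phosphorylates FoxO factors, and these move into the nucleus. In mammals they then switch on genes for sparing glucose, for autophagy and, in muscle, for breaking down protein. Irs2 passes the signal from the insulin receptor to AKT and is itself switched on by FoxO factors in mammalian liver, so it is both an input and a target. The coactivator PGC-1alpha, made from ppargc1a, is raised by fasting in mammalian liver and by exercise in muscle. Atrogin-1, made from fbxo32, and MuRF1, made in fish from trim63a and trim63b, are ubiquitin ligases that mark muscle proteins for the proteasome and serve as markers of muscle wasting.

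The 75th percentile of intensity was 454 to 499 on mutant arrays and 611 to 839 on sibling arrays. Every level below is the log2 of a probe's intensity minus the log2 of that percentile on its own array, so a level of 0 equals the percentile. A difference is therefore relative to the other transcripts of the same pool, and levels of different probes are not set against each other. Without any scaling the median difference of all named genes was -0.53, against 0.01 with it. Mutant replicate 4 had the fewest probes well above background, 67.3%, against 72.7% to 76.2% on the other 7 arrays. Precision is limited by having 4 arrays per genotype.

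The question put to these genes was whether loss of pex2 goes with a changed level of each. Both foxo3 genes, ppargc1a and the brighter irs2a probe were 1.92-fold to 2.75-fold higher in the mutant pools, with no overlap between genotypes. The dimmer irs2a probe overlapped between genotypes and did not pass (0.57, adjusted p = 0.0977 from limma). Of the muscle ligase genes, trim63a was higher, with overlapping pools and a call lost in 9 of 21 alternatives, and trim63b and fbxo32 did not pass the test. With each gene read from its brightest probe, 5 of the 7 genes passed an adjusted p of 0.05 and were higher, and 0 were lower. Across all named genes 57.6% passed, 29.9% higher and 27.8% lower in the mutants. The genotypes did not overlap for 4 of the 7 genes, all higher, as for 54.6% of all named genes (28.5% higher and 26.1% lower). The 7 genes were chosen with earlier results of these data known. Their counts beside those of all named genes are therefore a description and not a test.

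**Figure D1:**
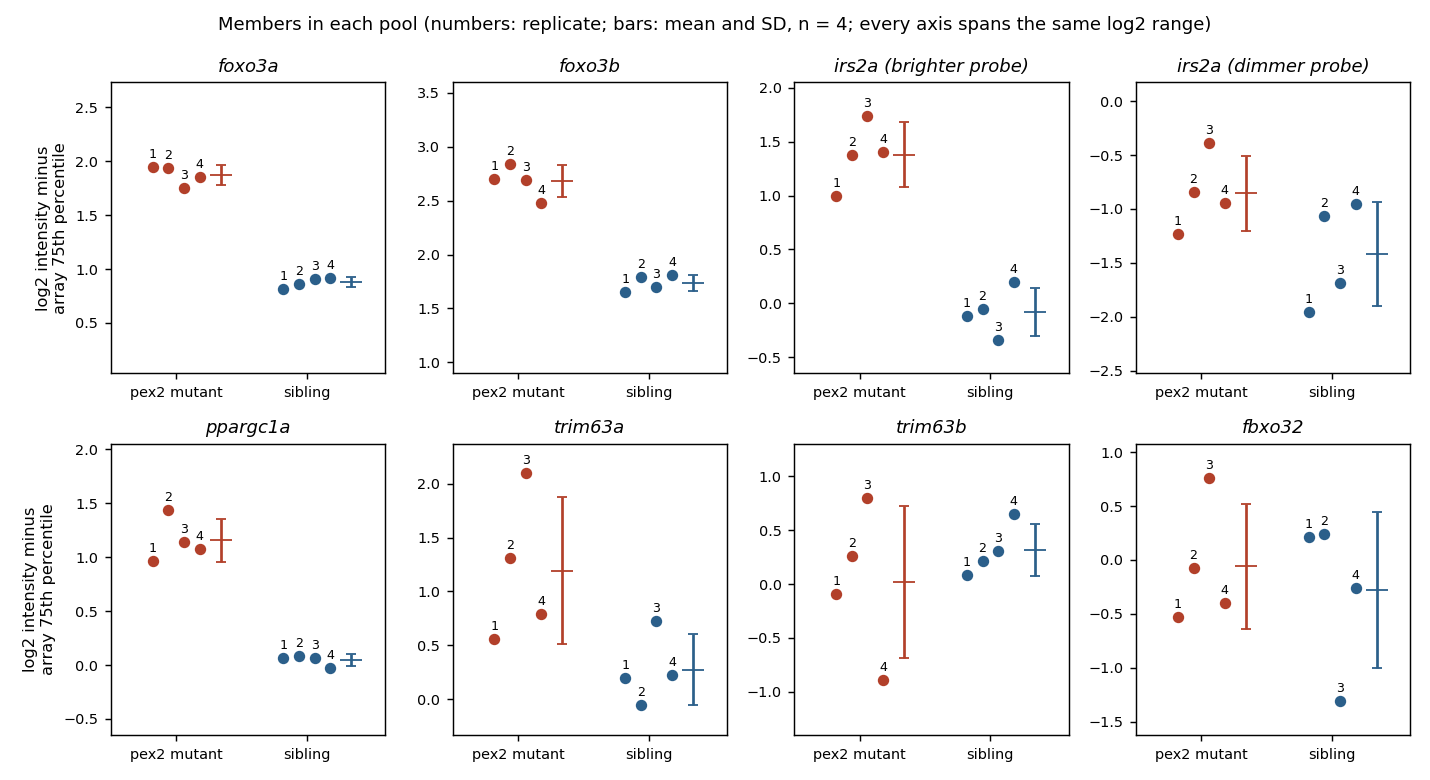
Each panel shows 1 probe, with its log2 intensity minus the array's 75th percentile on the vertical axis, the 4 pex2 mutant pools on the left and the 4 sibling pools on the right. Numbers are the replicates, bars are the mean and SD of 4 pools, and every axis spans the same log2 range; the genotypes are apart for foxo3a, foxo3b, ppargc1a and the brighter irs2a probe, and overlap for the other 4 probes.

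The forkhead factors come first. Zebrafish carry 2 copies of the Foxo3 gene, which encodes a transcription factor that AKT holds in the cytoplasm. The level of foxo3a was 1.95, 1.94, 1.75 and 1.86 in mutant replicates 1 to 4, against 0.82, 0.86, 0.91 and 0.92 in sibling replicates 1 to 4. The lowest mutant pool stood 0.83 above the highest sibling pool, several times the range of 0.20 within the mutants and 0.10 within the siblings. The difference was 0.99 ± 0.08 (moderated SE, n = 4 pools per genotype), a 1.99-fold rise with a 95% confidence interval of 0.80 to 1.19 in log2 and an adjusted p of 8.47e-05 from limma.

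The second copy behaved likewise. The level of foxo3b was 2.70, 2.84, 2.69 and 2.48 in mutant replicates 1 to 4, against 1.65, 1.79, 1.70 and 1.81 in the siblings. Its genotypes were 0.67 apart, and its lowest mutant pool was replicate 4. The difference was 0.94 ± 0.10, or 1.92-fold, with an adjusted p of 1.88e-04 from limma.

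Whether the copies responded unequally was asked within each array. The level of foxo3a minus that of foxo3b was -0.81 ± 0.15 in mutants and -0.86 ± 0.06 in siblings (SD, n = 4 each). The difference of 0.05 ± 0.08 (SE) between genotypes did not pass an exact two-sided permutation test (p = 0.543, adjusted p = 0.543 over 4 pairs), and its sign turned with quantile scaling (-0.02) and with normexp background correction (-0.01). Over the 8 arrays the profiles of foxo3a and foxo3b, each centred on its sibling mean, lay a root mean square distance of 0.10 apart in log2, the smallest distance between any 2 of the 7 genes. Both were next nearest to ppargc1a, at 0.16 and 0.17. Such distances take in the size of the genotype difference, so they do not by themselves show that genes varied together among the pools.

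Irs2 couples the activated insulin receptor to phosphatidylinositol 3-kinase. The brighter of the 2 irs2a probes read 1.00, 1.38, 1.74 and 1.40 in mutant replicates 1 to 4, against -0.12, -0.05, -0.34 and 0.19 in the siblings. The pools were 0.80 apart, and mutant replicate 3 was highest. The difference was 1.46 ± 0.18, or 2.75-fold, with a confidence interval of 1.06 to 1.86 and an adjusted p of 3.03e-04 from limma. Of all named genes, 1.68% had a larger difference, the smallest such share among the 7 genes when each is read from its brightest probe. For the dimmer irs2a probe the share was 21.5%.

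The dimmer irs2a probe, made for another transcript record of the gene, gave less. It read -1.23, -0.85, -0.39 and -0.94 in the mutants, against -1.96, -1.07, -1.69 and -0.96 in the siblings. The genotypes overlapped, with sibling replicates 2 and 4 among the mutant values. The difference was 0.57 ± 0.26 and did not pass (adjusted p = 0.0977 from limma, confidence interval -0.04 to 1.17). By slide row it was 0.20 in the first, which held sibling replicates 2 and 4, and 0.93 in the second. With both probes averaged, the difference of irs2a was 1.01 and passed (adjusted p = 0.00396 from limma). On both probes mutant replicate 3 was the highest mutant pool and mutant replicate 1 the lowest.

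PGC-1alpha is a coactivator that drives genes of mitochondria and, in the fasted liver of mammals, of glucose production. The level of ppargc1a was 0.97, 1.43, 1.14 and 1.08 in mutant replicates 1 to 4, against 0.06, 0.08, 0.07 and -0.03 in the siblings. The siblings spanned 0.11 and the mutants 0.47, with a gap of 0.88 between genotypes, the widest gap of any member probe. The difference was 1.11 ± 0.11, or 2.16-fold, with an adjusted p of 1.57e-04 from limma.

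**Figure D2:**
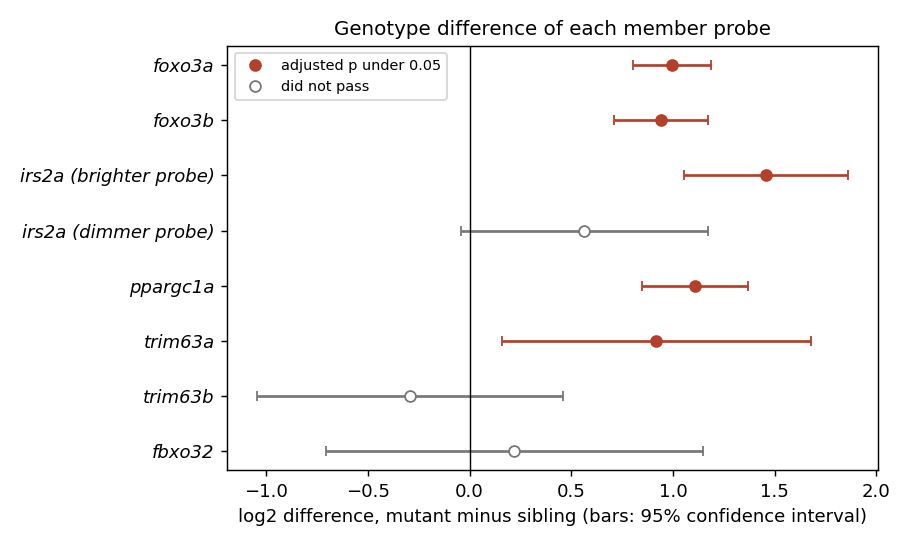
Points are the log2 differences, mutant minus sibling, of the 8 member probes, with 95% confidence intervals from limma; filled points passed an adjusted p of 0.05. The intervals of foxo3a, foxo3b, ppargc1a and the brighter irs2a probe lie well above 0, that of trim63a starts at 0.16, and those of the dimmer irs2a probe, trim63b and fbxo32 include 0.

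The muscle ligases varied far more from pool to pool. The level of trim63a was 0.56, 1.31, 2.10 and 0.79 in mutant replicates 1 to 4, against 0.20, -0.06, 0.73 and 0.22 in the siblings. Mutant replicate 1 lay below sibling replicate 3, so the genotypes overlapped by 0.17. The difference was 0.92 ± 0.33, or 1.89-fold, close to that of foxo3b in size but with an SE several times larger. The adjusted p was 0.0414 from limma and the confidence interval 0.16 to 1.68.

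This call was fragile. Leaving out mutant replicate 3, the highest pool, gave a difference of 0.62 (adjusted p = 0.0633), and leaving out mutant replicate 2 gave 0.88 (adjusted p = 0.0858). The call was also lost without sibling replicate 1 (adjusted p = 0.0855), 2 (adjusted p = 0.101) or 4 (adjusted p = 0.0835). It was lost with quantile scaling (adjusted p = 0.0516), with no filter on dim probes (adjusted p = 0.0539) and with the slide row as a block (adjusted p = 0.0575), and without scaling the difference was 0.37 (adjusted p = 0.392). Within the first row of the slide the difference was 1.25 and within the second row 0.59, each between 2 pools of either genotype.

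The other copy, trim63b, read -0.09, 0.26, 0.80 and -0.89 in mutant replicates 1 to 4, against 0.08, 0.22, 0.31 and 0.65 in the siblings. The mutants spanned 1.69 and enclosed every sibling pool. The difference was -0.29 ± 0.33 and did not pass (adjusted p = 0.467 from limma, confidence interval -1.05 to 0.46). Without mutant replicate 4, the lowest pool, it was 0.011 (adjusted p = 0.972), and without scaling between arrays it was -0.84 (adjusted p = 0.0449).

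Within an array, trim63a minus trim63b was 0.65, 1.05, 1.30 and 1.69 in mutant replicates 1 to 4, against 0.12, -0.27, 0.42 and -0.42 in the siblings. The 4 mutant values were all above the 4 sibling values. The means were 1.17 ± 0.43 and -0.04 ± 0.38 (SD, n = 4 each), and their difference was 1.21 ± 0.29 (SE). The exact two-sided permutation p was 0.0286, the smallest that 4 against 4 can give, which becomes 0.114 after adjustment over the 4 pairs. No pair that separates alone could therefore pass 0.05, so the adjusted p does not bear on whether the copies responded alike.

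Atrogin-1 is the F-box subunit that selects substrates for an SCF ubiquitin ligase. The level of fbxo32 was -0.53, -0.07, 0.76 and -0.40 in mutant replicates 1 to 4, against 0.21, 0.24, -1.31 and -0.26 in the siblings. The sibling range of 1.55 and the mutant range of 1.30 overlapped, with sibling replicate 3 lowest of all and mutant replicate 3 highest. The difference was 0.22 ± 0.40 and did not pass (adjusted p = 0.661 from limma). Its confidence interval of -0.71 to 1.15 includes no change as well as a rise as large as that of the foxo3 genes. The sign turned without mutant replicate 3 (-0.05) and without sibling replicate 3 (-0.12), and also without scaling between arrays (-0.32).

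Compared within arrays, fbxo32 minus trim63a was -1.10, -1.38, -1.33 and -1.19 in the mutants, against 0.01, 0.30, -2.04 and -0.49 in the siblings. The mutant pools were tight (SD 0.13) and the sibling pools were not (SD 1.04). The difference of -0.70 ± 0.52 (SE, n = 4 each) did not pass an exact permutation test (p = 0.229, adjusted p = 0.457), nor did that of fbxo32 minus trim63b, 0.51 ± 0.46 (p = 0.343, adjusted p = 0.457).

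The order of the mutant pools was not the same for every gene. In the 3 ligase genes and in irs2a, mutant replicate 3 was the highest mutant pool, at 1.82 above the sibling mean for trim63a, 1.04 for fbxo32 and 0.48 for trim63b. For foxo3a the same pool was the lowest mutant pool, at 0.87. Mutant replicate 2 was the highest pool for foxo3b and ppargc1a. No test was made of these orders, which were seen in the data.

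**Figure D3:**
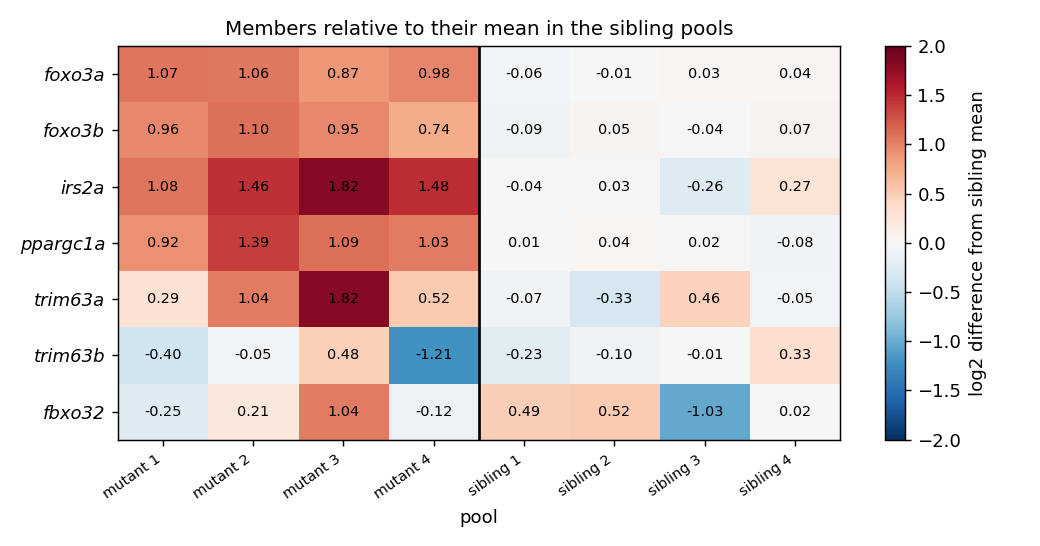
Each cell gives the level of 1 gene (row) in 1 pool (column) minus the gene's mean in the sibling pools, in log2 units, with the 4 mutant pools left of the 4 sibling pools and colour running from blue (lower) to red (higher). The upper 4 rows are red in every mutant pool, with values from 0.74 to 1.82, while trim63a, trim63b and fbxo32 range from -1.21 to 1.82 among the mutants. The irs2a row is its brighter probe.

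Levels of muscle RNA differed among the pools. The array held 22 of the 25 skeletal muscle markers listed, and all 22 were well above background on all 8 arrays. Of these 1 was higher and 4 lower in the mutants, beside 29.9% higher and 27.8% lower over all named genes. Their summed level, in units of the array's 75th percentile, was 1183 in mutant replicate 4, against 2590 to 2636 in the other 3 mutant pools and 1947 to 2560 in the sibling pools. In whole-body RNA, fewer cells of a type and less RNA per cell cannot be told apart. The same pool was lowest for trim63b and foxo3b but not for trim63a, fbxo32 or irs2a, and the part of muscle RNA in these values was not tested. Without mutant replicate 4 the differences were 1.05 for trim63a and 1.01 for foxo3b.

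**Figure D4:**
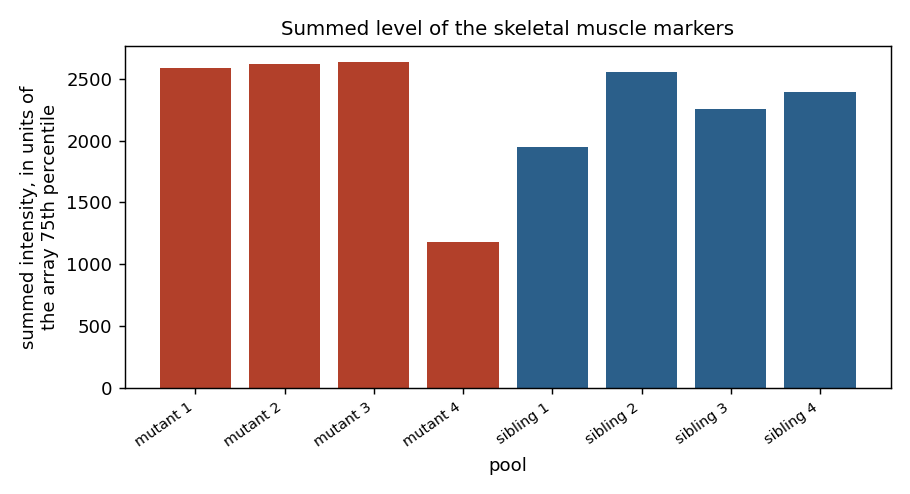
Bars give the summed intensity of the 22 skeletal muscle markers in each pool, in units of the array's 75th percentile, with the 4 mutant pools left of the 4 sibling pools. Mutant replicate 4, at 1183, stands below the rest, which lie between 1947 and 2636.

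Summed markers of other tissues also differed. The counts of markers that passed are to be read beside those of all named genes, 29.9% higher and 27.8% lower. Liver markers, of which 5 of 10 passed as higher and 0 as lower, had sums of 1101 to 1310 in mutants and 829 to 1040 in siblings. The liver marker ahsg2 just missed the threshold (-1.50 ± 0.57, adjusted p = 0.05004 from limma), with every mutant pool below every sibling pool. Neuron markers, 7 of 9 higher and 0 lower, had sums of 98.4 to 128 in mutants and 64.9 to 73.4 in siblings. All 7 heart markers were lower, with sums of 4.13 to 6.01 in the mutants and 12.9 to 16.5 in the siblings. Of 5 adipose markers measured, 1 (cidec, 0.50) was higher and 3 lower, with sums of 20.4 to 28.8 in mutants and 67.3 to 80.9 in siblings. Most of these sums came from cfd alone (mean level 4.41 in mutants and 6.17 in siblings). A further 1 adipose marker was not well above background on any array. Of 5 intestinal markers 0 were higher and 4 lower, with sums of 25.6 to 83.5 in mutants and 139 to 158 in siblings. The part of these tissue differences in the values of the 7 genes was not tested.

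The genes whose profile over the 8 arrays was most like each member were looked up among 13243 named genes well above background on all 8 arrays, with each gene centred on its sibling mean and likeness measured as root mean square distance in log2. Nearest to foxo3a were ccdc85a (0.05) and akap11 (0.05), and nearest to foxo3b were klhl23 (0.03) and lrfn5a (0.05). Nearest to irs2a were sesn1, a stress-induced restraint on the growth kinase mTORC1 (0.15), and bbc3, which encodes a protein that triggers cell death (0.16). For ppargc1a they were arglu1a (0.09) and rimbp2b (0.09). The ligases had no neighbour as close. The nearest were rab43 (0.21) and ugp2a (0.29) for trim63a, srl (0.22) and smyd2b (0.23) for trim63b, and csrnp1a (0.31) and msrb1a (0.36) for fbxo32.

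The rest of the pathway was read from 8 lists with 199 genes, of which 166 were measured. Of these 65 were higher and 23 lower in the mutants, so 53.0% passed, close to the 57.6% of all named genes. Among the genes that passed, 73.9% were higher, against 51.8% for all named genes. The lists' median difference was 0.24, against 0.01 for all named genes. The lists too were chosen with earlier results of these data known, so this lean is described and was not tested. Without scaling between arrays the split was 13 higher and 58 lower, with a median of -0.30 against -0.53 for all named genes. Of all named genes, 1151 were then higher and 8821 lower. Among the genes that then passed, 18.3% of the lists were higher, against 11.5% for all named genes. Counts and calls without scaling given below are to be read beside that general shift to lower values. Of the genes named below that passed and were higher, sh2b1, irs2b, akt3a, tsc1a, foxo6b, prkab1a, insig2, pparda and hdac4 kept their sign but did not pass without scaling.

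In the list of insulin and its receptors, substrates and adaptors 9 of 14 were higher and 2 lower, with a median of 0.39. The lowest value of the list was that of an insulin gene, insb, named after its values were seen (-2.70 ± 0.65, adjusted p = 0.00799 from limma). It was well above background on 2 of 4 mutant arrays and all 4 sibling arrays, so the size of its fall is uncertain. The other insulin gene listed, insa, was not among the genes measured, so insulin expression as a whole was not read. The adaptors sh2b2 (1.21 ± 0.15, adjusted p = 3.17e-04 from limma) and sh2b1 (0.77 ± 0.10) were among the 9 higher genes. The second Irs2 gene, irs2b, was 1.99-fold higher (0.99 ± 0.17, adjusted p = 0.00164 from limma, and 0.0649 without scaling). Its level was 0.02, 0.58, 0.60 and 0.67 in mutant replicates 1 to 4, against -0.74, -0.49, -0.63 and -0.25 in the siblings, again with no overlap. The signalling inhibitor socs3b (-0.62 ± 0.09) was lower. Its paralogue socs3a did not pass (-1.20 ± 0.49, adjusted p = 0.0658 from limma), but was lower and passed in 5 of 21 alternatives. The receptor gene insrb, well above background on 3 of 4 mutant arrays, did not pass either (-0.30 ± 0.19). It passed as higher with normexp (0.25, adjusted p = 0.0432) and as lower with quantile scaling (-0.37, adjusted p = 0.0427) and without scaling (-0.85), so it has no settled direction. The other receptor gene, insra, named after its values were seen, was higher with no overlap (0.34 ± 0.09, adjusted p = 0.0130 from limma). With quantile scaling this list had 8 higher and 4 lower, and without scaling 1 higher and 5 lower.

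Of 22 genes for phosphatidylinositol 3-kinase, AKT and their partners, 8 were higher and 3 lower, with a median of 0.14, and without scaling 0 were higher and 11 lower, with a median of -0.40. The AKT kinase akt3a (0.81 ± 0.17) was higher, as were pdpk1b, whose kinase activates AKT (0.42 ± 0.08, and -0.12 without scaling between arrays), and the regulatory subunit pik3r3b (0.42 ± 0.09, and -0.12 without scaling). The kinase gene sgk2b (-1.05 ± 0.25) was lower. So was pik3r3a, the paralogue of pik3r3b, named after its values were seen (-0.61 ± 0.17, adjusted p = 0.0159 from limma). Neither trib3 (0.30 ± 0.18, and -0.25 without scaling) nor inppl1a (-0.43 ± 0.40, and 0.23 with normexp) passed. The inppl1a probe was well above background on 2 of 4 mutant arrays.

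Around mTORC1, the kinase complex that promotes growth when nutrients are plentiful, 8 of 19 genes were higher and 1 lower, with a median of 0.29 (without scaling 2 higher and 4 lower). The inhibitor sesn1 was 2.48-fold higher (1.31 ± 0.17, adjusted p = 4.15e-04 from limma), with levels of 3.53, 4.06, 4.14 and 3.74 in the mutants, against 2.42, 2.50, 2.41 and 2.89 in the siblings. Every mutant pool was above every sibling pool. The related sesn2 was lower (-0.80 ± 0.12), the only gene of this list that was. Also higher were rictora (1.19 ± 0.17, and 0.71 with normexp), a subunit of the complex that phosphorylates AKT, and tsc1a (0.59 ± 0.10), which restrains mTORC1. The difference of akt1s1 (0.40 ± 0.15) did not pass but was higher and passed in 6 of 21 alternatives, among them quantile scaling (0.46), and was -0.15 without scaling. That of castor1 (-0.41 ± 0.18), well above background on 3 of 4 mutant arrays, did not pass either. It was lower and passed in 3 of 20 alternatives, among them quantile scaling (-0.47), and was 0.13 with normexp. Among energy sensors and CREB partners 8 of 17 were higher and 1 lower, with a median of 0.26 (without scaling 2 higher and 4 lower). The CREB coactivator crtc1a (1.31 ± 0.14) and the mitochondrial deacetylase sirt3 (1.63 ± 0.19, and 0.94 with normexp) were higher. Of the AMP-activated kinase's subunits prkab1a was higher (0.85 ± 0.10) and its paralogue prkab1b lower (-0.69 ± 0.09). The subunit gene prkaa2 did not pass (0.34 ± 0.14). It was higher and passed in 5 of 21 alternatives, among them normexp (0.36, adjusted p = 0.00572), and was -0.20 without scaling. Nor did prkab2 (0.21 ± 0.15, and -0.33 without scaling), which passed as higher without mutant replicate 4 (0.33).

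Of the other FoxO genes 3 were measured. The foxo6b gene was higher (0.65 ± 0.13, adjusted p = 0.00374 from limma), and so was foxo4 (0.52 ± 0.13, adjusted p = 0.00796 from limma, and -0.019 without scaling). For foxo1a the brighter probe did not pass (0.13 ± 0.13), while its dimmer probe, well above background on 2 of 4 mutant arrays, was lower (-1.10 ± 0.18). The 2 probes disagree, so no direction is given for foxo1a.

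**Figure D5:**
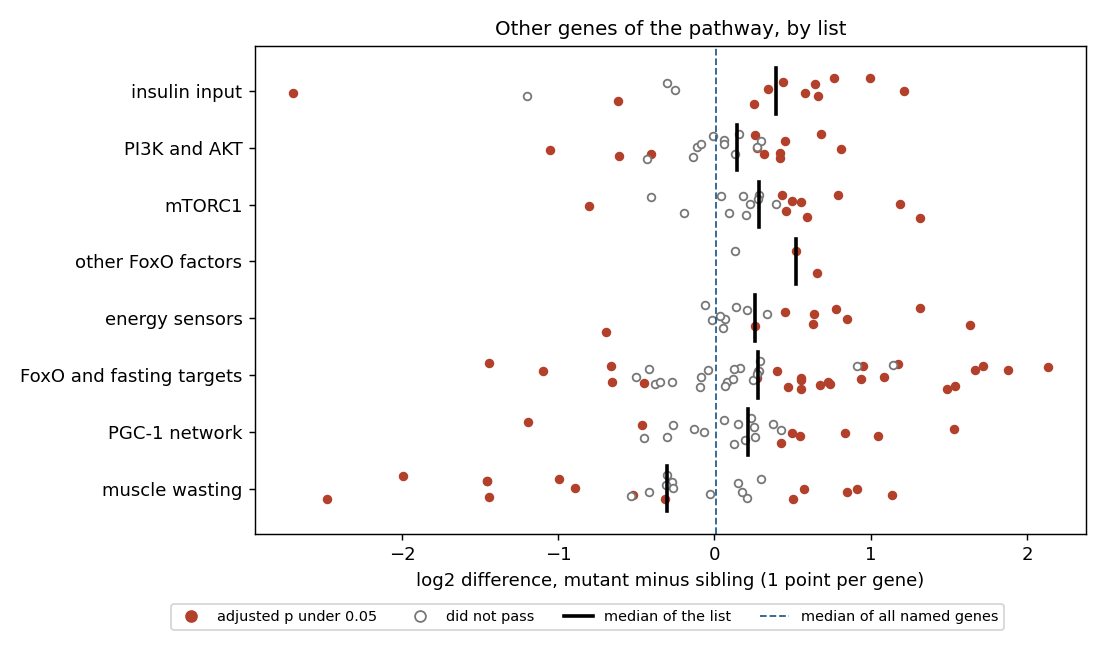
Each point is 1 gene of a pathway list, placed by its log2 difference, mutant minus sibling; filled points passed an adjusted p of 0.05, black bars are list medians and the dashed line is the median of all named genes. List medians lie between 0.14 and 0.52 in 7 lists and at -0.30 for the muscle wasting list, which is at 0.0081 without mutant replicate 4.

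Genes known as targets of FoxO factors or of fasting went both ways. Of 44 measured, 19 were higher and 5 lower, with a median of 0.28 and differences from -1.44 to 2.13. Without scaling 6 were higher and 13 lower, with a median of -0.26. The mitophagy receptor bnip3 was 2.81-fold higher (1.49 ± 0.14, adjusted p = 1.18e-04 from limma), at -0.16, -0.25, -0.21 and -0.68 in the mutants, against -1.92, -1.69, -1.97 and -1.69 in the siblings. The genotypes were far apart, with mutant replicate 4 the lowest mutant pool. The repressor nfil3-5 (1.88 ± 0.19) and the sterol-pathway inhibitor insig2 (0.95 ± 0.12) were higher. The largest rise of the list was that of igfbp1a, named after its values were seen, with no overlap (2.13 ± 0.36, adjusted p = 0.00149 from limma). The cell cycle inhibitor cdkn1a, a classical FoxO target in mammals, was lower (-1.44 ± 0.17, adjusted p = 2.99e-04 from limma). Neither hmgcs1, of sterol synthesis (1.14 ± 0.54), nor the autophagy kinase gene ulk1b (0.91 ± 0.46) passed, though each did so as higher in some alternatives, hmgcs1 without mutant replicate 2 (1.69) and ulk1b with normexp (0.65). The ulk1b probe was well above background on 3 of 4 arrays of each genotype. Its paralogue ulk1a, named after its values were seen, was lower with no overlap (-0.65 ± 0.10, adjusted p = 0.00103 from limma).

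Of 22 partners and targets of PGC-1alpha measured, 6 were higher and 2 lower, with a median of 0.22, and without scaling 1 was higher and 8 lower. The fatty acid receptor pparda (0.84 ± 0.10) and the transcription factor gene mef2d (1.53 ± 0.19) were higher. The related coactivator pprc1 (-1.19 ± 0.19, and -0.77 with normexp) and the respiratory chain subunit cox4i1 (-0.46 ± 0.08) were lower, though cox4i1 was at -0.017 and did not pass with quantile scaling. The cytochrome c gene cycsb did not pass (-0.45 ± 0.19), but was lower and passed with normexp (-0.49), and was at -0.011 with quantile scaling. Nor did mef2ca (0.42 ± 0.27, and -0.12 without scaling), which passed as higher without mutant replicate 4 (0.72).

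The muscle wasting list held other ubiquitin ligase subunits, proteases and regulators of muscle growth and differentiation. Of 25 measured genes 5 were higher and 9 lower, with a median of -0.30 (without scaling 1 higher and 12 lower). Without mutant replicate 4, the pool with the lowest summed muscle markers, 6 were higher and 9 lower and the median was 0.0081. The skeletal muscle markers themselves had 1 higher and 4 lower and a median of -0.31, and their part in these values was not tested. The F-box gene fbxo21 (0.91 ± 0.10) and the deacetylase hdac4 (0.57 ± 0.08) were higher. The lysosomal protease ctsla was lower (-1.44 ± 0.16, adjusted p = 1.93e-04 from limma). The F-box gene fbxo30a, whose mammalian counterpart is induced in wasting muscle, was well above background on 0 of 4 mutant arrays and on all 4 sibling arrays. On the main scale it was at least 3.68-fold lower in mutants (adjusted p = 2.21e-04 from limma). With normexp, its log2 difference was -0.55 (adjusted p = 0.00441), so the size of the fall, and this bound, depend on the background correction. Such a bound sets the sibling mean against the higher, on each mutant array, of the probe's own signal and the lowest signal well above background. Neither myog (-0.53 ± 0.30, and -0.21 without mutant replicate 4) nor zfand5b (-0.42 ± 0.22) passed, though both were lower and passed without scaling.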

How the data were processed

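Whole-body RNA pools of pex2 mutants and siblings were hybridised to one-colour (Cy3) Agilent arrays, 1 pool per array, all 8 on 1 slide and scanned together, per the file headers. The intensity values were background-subtracted with Agilent Feature Extraction 10.7.3.1 (protocol GE1_107_Sep09), per the file headers and the submitters' processing notes. The deposited table holds log2 values, which matched the scanner values after scaling to the 75th percentile and centring each probe on its median (99.4% to 99.5% of values per array within 0.01; column medians -0.09 to 0.17).

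After removal of 1099 outlier spots, the spots of each probe were averaged in log2 and the array's 75th percentile was subtracted. A filter kept the 29932 of 39749 probes that 4 or more arrays measured well above background. Accessions were named through the RefSeq table of the GRCz12tu assembly, which named 61.8% of probes. Coordinates are left out, because the grid was drawn on danRer7. A gene was its brightest kept probe. The fit used limma 3.58.1 under R 4.3.3 (lmFit, eBayes, two-sided, Benjamini-Hochberg over all probes kept), and 4 gene pairs with exact permutation tests. Replicate numbers were checked for pairing: same-numbered pools deviated together with correlations of 0.18, 0.10, -0.02 and -0.02, so the numbers were not taken as pairs. Each slide row held 2 pools of either genotype. The planned normexp correction used spot medians in place of means, which the files lack.

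The members, lists and tests were chosen with earlier results of these data known. From each list the text names up to 4 passing genes of smallest adjusted p and up to 2 with the largest differences that did not pass, and for each member the 2 genes of nearest profile. Genes marked as named after their values were seen fall outside this rule, and no alternatives are given for them. Alternatives were normexp (offset 50), quantile, median and no scaling, 2 other filters, the deposited table, outlier spots left in, array weights and a robust trended prior, a replicate or slide row block, averaged probes and each array left out.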

Additional observations from a re-analysis of the deposited data

Results flagged for a closer look

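Among 126 groups of 4 pools looked at for 1 pool far from the other 3, 14 had one. The rule flags about 1 in 20 by chance when groups are independent. These groups share the same pools, so no excess over chance is read from the count. None of them was a member gene. Mutant replicate 4 was the pool in 8 of the 14, among them the summed skeletal muscle markers (1183, others 2590 to 2636) and the summed neuron markers (128, others 98.4 to 103). In log2 levels it stood apart for sgk2b (-1.21, others -0.31 to -0.19) and for castor1 (-4.66, well above background on 3 of 4 mutant arrays). It also did so for prkab1b (1.85, others 1.59 to 1.62) and bnip3 (-0.68, others -0.25 to -0.16). The same pool was low for the muscle transcription factor genes mef2ca (-0.53, others 0.56 to 0.78) and myog (-0.78, others 0.42 to 0.64). Mutant replicate 1 stood apart for irs2b (0.021, others 0.58 to 0.67) and pprc1 (-1.93, others -2.35 to -2.29), and mutant replicate 3 for prkab1a (-0.89, others -0.64 to -0.63). Among siblings, replicate 1 did so for sh2b2 (-3.36, others -2.90 to -2.86) and cdkn1a (-0.33, others 0.24 to 0.32), and replicate 4 for insig2 (-3.77, others -3.44 to -3.41).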

How the results depend on the processing

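Over 21 alternatives foxo3a, foxo3b, irs2a and ppargc1a kept their direction and passed, with irs2a read from its brighter probe or from both averaged. Their lowest differences were 0.45, 0.40, 0.92 and 0.57, each without scaling between arrays, a setting chosen after seeing the data. The call of trim63a held in 12 of 21: it was lost with quantile scaling (0.89), no filter on dim probes (0.92), the slide row as a block (0.92) and no scaling (0.37), and leaving out 1 pool gave 0.62 to 1.13. Without scaling fbxo32 was -0.32 and trim63b -0.84, which then passed (adjusted p = 0.0449); leaving out 1 pool gave -0.12 to 0.39 for fbxo32 and -0.55 to 0.011 for trim63b. The pair foxo3a minus foxo3b turned with normexp (-0.013) and quantile scaling (-0.019), and lay between -0.0065 and 0.10 with 1 pool left out. Without scaling the median difference was -0.30 for the pathway lists and -0.53 for all named genes. For all named genes it was 0.091 with normexp, 0.081 with no filter and 0.047 with probes well above background on all arrays. Signs turned with normexp for insrb (0.25), inppl1a (0.23) and castor1 (0.13), and with averaged probes for foxo1a (-0.48). Without scaling they turned for pdpk1b (-0.12), pik3r3b (-0.12), trib3 (-0.25), akt1s1 (-0.15), foxo4 (-0.019), foxo1a (-0.41), prkaa2 (-0.20), prkab2 (-0.33) and mef2ca (-0.12). Leaving out scaling lowered the difference of each of these genes by the same amount, so the signs turned where the main difference was small. The averaged value of foxo1a lies between those of its 2 probes, 0.13 and -1.10. The cause of the other changes was not tested. With the replicate block 9421 named genes passed, against 9948 without it, trim63a had an adjusted p of 0.0182, and no call of a member changed. Pair tests were not repeated for the limma settings, the missing filter or the missing scaling, which leave them as they were.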
